A study of Mus musculus with 17 samples.

Results

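The GATA transcription factors, their cofactor FOG-1 and the Gfi1 repressors were followed through 6 sorted mouse bone marrow populations. The members were taken by name. Every non-control probe whose gene name in the scanner output was Gata1, Gata2, Gata3, Zfpm1, Gfi1 or Gfi1b was used, which gave 7 probes for 6 of the 28090 gene names on the array. Gata2 had 2 probes and each other gene had 1. RNA was measured on 17 single-color Agilent arrays. Of these, 8 carried HSC subsets and 9 carried myeloid progenitors, with 3 arrays a population and 2 for LT-HSC. All cells came from bone marrow of female C57Bl/6 mice, for which no treatment or genetic change is named, and each sample was a pool of mice. Lineage-positive cells (B220, CD3, Gr-1, Ter119) were depleted and c-kit+ cells enriched. Long-term HSCs (LT-HSC) were then sorted as Sca-1+ CD34- FLT3- cells, short-term HSCs (ST-HSC) as Sca-1+ CD34+ FLT3- and multipotent progenitors (MPP) as Sca-1+ CD34+ FLT3+ cells, together called the HSC subsets. In a separate sort, Sca-1- cells were divided into common myeloid progenitors (CMP, intermediate for CD34 and the Fc gamma receptor), granulocyte-macrophage progenitors (GMP, positive for both) and megakaryocyte-erythrocyte progenitors (MEP, negative for both). A population is thus a gate on surface protein, and a gate can hold more than one kind of cell. Fewer cells of a type and less RNA per cell cannot be told apart in such samples.

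GATA factors bind the DNA letters GATA through zinc fingers. GATA-1 drives erythroid, megakaryocytic, mast cell and eosinophil genes, GATA-2 is needed to maintain stem and early progenitor cells, and GATA-3 is best known from T cell development and is also made in HSCs. During red cell development GATA-1 takes over chromatin sites from GATA-2, which is called the GATA switch, and FOG-1, the product of Zfpm1, binds GATA-1 and brings in the NuRD corepressor complex. Gfi1 and Gfi1b are related zinc finger repressors that recruit LSD1 and CoREST. Gfi1 is needed for neutrophil development and for HSC function, and Gfi1b for erythroid and megakaryocytic development.

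The stretch of RNA that each value refers to is set by the probe, a sequence of 60 bases. The first 30 bases of each member's probe are printed to show which stretch was measured, with the position of the whole probe in mm9, the build of the array design. No letter is capitalised because no part was singled out.
Gata1, chrX:7536849-7536908, minus strand: gcgtgatcgccccactcagttcttgaaggt
Gata2 (brighter probe), chr6:88156835-88156894, plus strand: ctagtacccgcataagagaagaatcggcag
Gata2 (dimmer probe), chr6:88156362-88156421, plus strand: aactgcataagcttaacccgctgatgagtg
Gata3, chr2:9778983-9779042, minus strand: ataaactagattgctttcagttgacttaag
Zfpm1, chr8:124861053-124861112, plus strand: tattactgctcttctcacgccgccgagcac
Gfi1, chr5:108145852-108145911, minus strand: ctaaagttcatgagtaaatccagcttttat
Gfi1b, chr2:28464982-28465041, minus strand: agccatgatagtagaagcctgctcctatca
The 2 Gata2 probes lie on the same transcript and do not overlap. The Gata1 probe was printed on 10 spots of each array and the others on 1 spot. No member probe was saturated on any array, and none of their values was missing. Intensities of different probes are not on 1 scale, so a level was compared only with the level of the same probe in other samples.

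RefSeq promoter windows were found for all 6 genes, 8 windows in all because Gata2 and Gfi1 have 2 starts each. The 250 bases before each start were searched on both strands for letters that GATA factors bind, AGATAA or AGATAG, as well as TGATAA or TGATAG, and for AAATCA, which contains the AATC core of Gfi1 sites. Gfi1b was the member with a match, 1 of each kind, and its window is shown with the matches in capitals. The window of Zfpm1, which had neither, is shown beside it because the profiles of both genes were the most alike among the members. Positions are in GRCm38.p6.
Gfi1b, chr2:28621983-28622232, minus strand: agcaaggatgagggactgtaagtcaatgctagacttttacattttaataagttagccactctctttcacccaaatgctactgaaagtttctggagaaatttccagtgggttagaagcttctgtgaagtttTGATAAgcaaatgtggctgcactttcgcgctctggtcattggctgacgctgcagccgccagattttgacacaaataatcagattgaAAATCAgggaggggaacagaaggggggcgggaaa
Zfpm1, chr8:122281891-122282140, plus strand: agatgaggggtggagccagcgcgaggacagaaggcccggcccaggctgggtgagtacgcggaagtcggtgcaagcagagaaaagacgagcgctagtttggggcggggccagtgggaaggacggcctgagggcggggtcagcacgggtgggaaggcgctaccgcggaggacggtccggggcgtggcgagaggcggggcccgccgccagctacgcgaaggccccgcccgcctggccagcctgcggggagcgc
Across all 32851 windows of this length, 26.5% held at least 1 of the GATA motifs and 12.4% held AAATCA. The matches in the Gfi1b window did not overlap. A match is a description of letters, not of binding.

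The arrays were scanned in 3 periods. Period 1 held 6 myeloid arrays, period 3 held 6 HSC subset arrays, both LT-HSC arrays among them, and period 2 held 5 arrays, the unnumbered replicate of every population but LT-HSC. Of the LT-HSC arrays, the unnumbered one was weak throughout (75th percentile of intensity 53.1, elsewhere 243.3 or more) and is called the dim array. The transcripts of all 6 sort markers (Kit, Ly6a, Cd34, Flt3, Fcgr3 and Fcgr2b) were well above background on every array. The marker RNA did not always follow the gate on protein, since Ly6a, which encodes Sca-1, stood at a log2 intensity of 9.71 ± 0.67 (SD, n = 3) in GMP. In ST-HSC it was at 8.88 ± 0.79 (SD, n = 3). Markers of other cells were detected in part. Of 6 B cell genes 3 to 5, and of 6 T cell genes 2 to 6, were well above background on an array, with T cell genes at 5 or 6 of 6 in ST-HSC and MPP. The B cell factor Ebf1 was not above background on any of the 17 arrays, and Cd79a, another B cell gene, was not above it in CMP or MEP. The T cell genes Cd3d and Cd3g were not above it in CMP or GMP, nor was Cd8a in GMP or MEP. Neutrophil granule genes were detected everywhere, with 5 or 6 of 6 genes well above background on each array.

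All 7 probes differed among the 6 populations (F-test of limma over 41174 probes, adjusted p at most 0.000103), against 40.6% of all probes. Values are normalized log2 intensities. Gata1, the erythroid and megakaryocytic factor, was highest in MEP, at 12.30 in replicate 1, 12.23 in replicate 2 and 11.72 in the unnumbered replicate. In CMP it stood at 10.44, 10.50 and 9.44 in the same order. In LT-HSC it was at 9.21 in the pool of replicates 2 and 3 and at 7.73 on the dim array. The ST-HSC arrays were close together at 8.24, 8.33 and 8.50, and the GMP arrays at 7.98, 8.11 and 8.08. Gata1 was lowest in MPP, at 4.74, 5.32 and 6.02, where every array was below every array of the other populations. Of the 5 steps between neighbours in this order, MEP over CMP (1.96 ± 0.40, log2 difference ± SE), CMP over LT-HSC (1.66 ± 0.44) and GMP over MPP (2.69 ± 0.40) passed the test (limma, adjusted p = 0.00333, 0.0182 and 0.000334). The steps from LT-HSC to ST-HSC (0.11, adjusted p = 0.947) and from ST-HSC to GMP (0.30, adjusted p = 0.65) did not, although the ST-HSC arrays all lay above the GMP arrays. The step from CMP to LT-HSC rested on single arrays. It was 0.92 without the dim LT-HSC array (limma, adjusted p = 0.242), 1.5 without CMP replicate 1 (adjusted p = 0.0591) and 1.47 without CMP replicate 2 (adjusted p = 0.0676). With the scanning period in the fit it was 0.72 (adjusted p = 0.463).

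Gata2, the stem and progenitor factor, had another order. On its brighter probe ST-HSC was highest, at 12.84, 12.79 and 12.42, and CMP and LT-HSC followed at 12.04 to 12.33 and 12.05 to 12.27. GMP stood at 11.52, 11.48 and 11.48, MPP at 10.92, 10.92 and 10.60, and MEP at 10.41, 10.64 and 10.56. The populations thus fell into an upper group of ST-HSC, CMP and LT-HSC and a lower one of MPP and MEP, with GMP between them and overlapping neither. The steps from LT-HSC to GMP (0.67 ± 0.17) and from GMP to MPP (0.68 ± 0.15) passed the test (limma, adjusted p = 0.0116 and 0.00633), and the other 3 did not. Without the pooled LT-HSC array the step from LT-HSC to GMP was 0.56 (limma, adjusted p = 0.0733), and with the scanning period in the fit 0.29 (adjusted p = 0.312). Without the unnumbered ST-HSC array the step from ST-HSC to CMP passed it (0.61, limma, adjusted p = 0.0195). The dimmer probe, on the same transcript, gave ST-HSC 12.26 ± 0.35 (SD, n = 3), CMP 11.85 ± 0.11 (SD, n = 3), LT-HSC 11.81 ± 0.26 (SD, n = 2), GMP 10.98 ± 0.08 (SD, n = 3), MEP 10.44 ± 0.21 (SD, n = 3) and MPP 10.08 ± 0.08 (SD, n = 3). It placed MPP instead of MEP last. Mast cell and basophil markers, 6 genes that include Cpa3 and Ms4a2, had a mean log2 intensity of 11.78 to 12.37 on the GMP arrays, 9.96 to 10.60 on the ST-HSC arrays and 5.51 to 8.64 on the arrays of the other populations, and their part in the Gata2 values was not tested.

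Gata3 was highest in LT-HSC, at 10.23 and 9.68, and ran down through ST-HSC (8.98, 9.15 and 8.77) and MPP (8.48, 8.89 and 7.96). It was lower again in MEP (6.70, 6.86 and 7.80) and CMP (6.71, 6.63 and 7.08). In GMP it read 2.64, 4.0 and 3.04, and none of these 3 values was well above background, so GMP has only an upper limit. Every array of the HSC subsets was above every myeloid array. The steps from MPP to MEP (1.32 ± 0.37; limma, adjusted p = 0.0141) and from CMP to GMP (adjusted p = 9.3e-05) passed the test. As bounds, Gata3 was at least 52.4-fold higher in LT-HSC than in GMP, at least 26.4-fold in ST-HSC, at least 18.4-fold in MPP, at least 7.34-fold in MEP and at least 5.92-fold in CMP. For these bounds the dimmer side was set on each array to the lowest signal among probes well above background. They hold for this background correction only. Under normexp, another correction, GMP minus MEP was -1.11 and GMP minus CMP -0.94 on the log2 scale. In the authors' table of normalized values these differences were -1.82 and -1.51. The step from MPP to MEP did not pass without MPP replicate 3 (1.10, adjusted p = 0.0675), MEP replicate 1 (1.11, adjusted p = 0.065) or MEP replicate 2 (1.19, adjusted p = 0.0552), nor with the scanning period in the fit (0.73, adjusted p = 0.319).

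**Figure D1:**
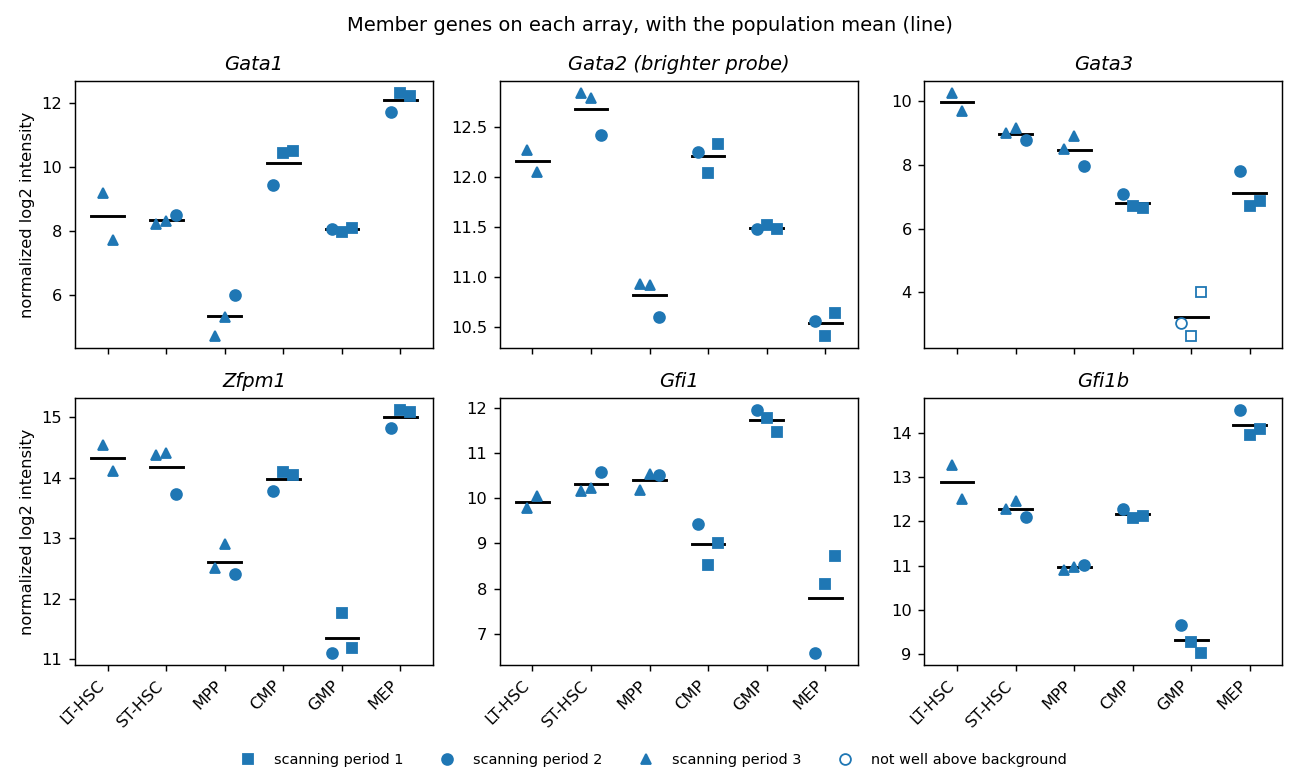
Normalized log2 intensity of the 6 genes (vertical axis, own scale in each panel) on each of 17 arrays, by population. Lines are population means, the marker shape gives the scanning period, and open markers are not well above background. Gata1, Zfpm1 and Gfi1b peak in MEP, Gfi1 in GMP and Gata3 in LT-HSC, and the 3 GMP arrays of Gata3 are open, at 2.64 to 4.0.

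Zfpm1, which encodes the GATA-1 cofactor FOG-1, was highest in MEP, at 15.12, 15.10 and 14.83. LT-HSC (14.55 and 14.12), ST-HSC (14.38, 14.42 and 13.74) and CMP (14.11, 14.05 and 13.78) were close together, with ST-HSC overlapping both and LT-HSC just above CMP. MPP stood below them at 12.52, 12.91 and 12.41, and GMP was lowest at 11.76, 11.18 and 11.11. The steps from CMP to MPP (1.37 ± 0.23) and from MPP to GMP (1.26 ± 0.23) passed the test (limma, adjusted p = 0.00298 and 0.00175). The step from MEP to LT-HSC was 0.68 ± 0.26 (limma, adjusted p = 0.0687). It passed the test without the unnumbered ST-HSC array (adjusted p = 0.0423) and with the scanning period in the fit (0.95, adjusted p = 0.0323). Without the dim LT-HSC array this step fell to 0.46.

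Gfi1b, the erythroid and megakaryocytic repressor, had the same 6-population order as Zfpm1. MEP stood at 13.95, 14.11 and 14.52, LT-HSC at 13.28 and 12.51, ST-HSC at 12.28, 12.46 and 12.10 and CMP at 12.09, 12.12 and 12.29. MPP followed at 10.91, 10.96 and 11.02, and GMP at 9.27, 9.02 and 9.64. Populations apart from ST-HSC and CMP did not overlap with their neighbour. Mature erythroid markers, of which 4 genes were on the array, had their highest mean log2 intensity in the same populations, 9.36 to 10.59 on the MEP arrays and 7.95 to 8.32 on the LT-HSC arrays, against 6.63 to 7.91 in ST-HSC, 5.85 to 7.11 in MPP, 5.69 to 6.79 in CMP and 4.53 to 5.77 in GMP, and their part in the Zfpm1 and Gfi1b values was not tested. The steps from MEP to LT-HSC (1.3 ± 0.25), from CMP to MPP (1.21 ± 0.22) and from MPP to GMP (1.65 ± 0.22) passed the test (limma, adjusted p = 0.00138, 0.00447 and 0.000161) and did so with each array left out in turn.

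Gfi1, the repressor of the neutrophil lineage, was highest where Gfi1b was lowest. GMP stood at 11.78, 11.48 and 11.95. MPP (10.19, 10.55 and 10.51), ST-HSC (10.16, 10.23 and 10.58) and LT-HSC (9.78 and 10.06) lay within 1 log2 unit of each other. CMP followed at 8.53, 9.02 and 9.42 and MEP at 8.09, 8.72 and 6.57, the widest spread of any population for this probe. The step from GMP to MPP was the 1 that passed the test (1.32 ± 0.42; limma, adjusted p = 0.036). It did not pass without any single one of the 3 GMP or 3 MPP arrays (adjusted p = 0.0551 to 0.122) or with the scanning period in the fit (0.96, adjusted p = 0.378). The step from CMP to MEP was 1.20 ± 0.42 (limma, adjusted p = 0.07) and passed it without MEP replicate 2 (1.66, adjusted p = 0.0106). Without the unnumbered MEP array it was 0.59 (MEP minus CMP, -0.59, adjusted p = 0.207). The step from LT-HSC to CMP (0.93 ± 0.46; adjusted p = 0.172) passed it without the unnumbered MEP array (adjusted p = 0.0298).

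In all, 13 of the 30 steps between neighbouring populations passed the test. The share of all probes called differs widely between such pairs. It was 2.02% for MPP against ST-HSC, 3.34% for LT-HSC against ST-HSC, 10.3% for ST-HSC against CMP, 12.1% for CMP against MPP and 19.7% for ST-HSC against GMP. It was 22.5% for GMP against MPP, 23.4% for CMP against LT-HSC, 28% for LT-HSC against GMP, 30% for MEP against LT-HSC and 32.9% for MPP against MEP. Steps between 2 HSC subsets that were neighbours did not pass for any gene. The pair of ST-HSC and MPP, which share 1 sort and the same scanning periods, did differ for 4 genes in which they were not neighbours. Gata1 was 7.98-fold, Gata2 3.65-fold on the brighter and 4.54-fold on the dimmer probe, Zfpm1 2.96-fold and Gfi1b 2.50-fold lower in MPP (limma, adjusted p = 0.00121, 5.69e-05, 5.69e-05, 0.00262 and 0.00576). On each of these 5 probes the 3 MPP arrays lay below the 3 ST-HSC arrays, in a pair for which few probes were called. The share of all probes separated in this way is not given here. Gata3 (ST-HSC minus MPP, 0.52 ± 0.37, adjusted p = 0.906) and Gfi1 (-0.09 ± 0.42, adjusted p = 1) did not pass. Of the 15 pairs of populations, 13 were called for Gfi1b, 12 each for Gata1 and Gata3, 11 for Zfpm1, 11 and 10 for the probes of Gata2, and 9 for Gfi1. Besides the shares above, 4.77% of all probes were called for GMP against CMP, 16.7% for MEP against CMP and 17.4% for GMP against MEP. No share is given for LT-HSC against MPP or ST-HSC against MEP.

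The choice between the granulocytic and erythroid branches was read from GMP against MEP. All 6 genes differed. Gfi1b (GMP minus MEP, -4.88 ± 0.22 on the log2 scale), Gata1 (-4.03 ± 0.40), Gata3 and Zfpm1 (-3.66 ± 0.23) were lower in GMP, and Gfi1 (3.94 ± 0.42) and Gata2 (0.96 ± 0.15 on the brighter probe) were higher. As fold changes, Gfi1b was 29.5-fold, Gata1 16.3-fold and Zfpm1 12.7-fold lower in GMP, and Gfi1 was 15.4-fold and Gata2 1.94-fold higher (limma, adjusted p = 2.36e-08, 7.23e-06, 2.22e-07, 1.32e-05 and 0.000514). Gata3 was at least 7.34-fold lower (limma, adjusted p = 5.23e-06), a bound that holds for this background correction, since normexp gave a difference of -1.11. The dimmer Gata2 probe gave 0.54 ± 0.18 (limma, adjusted p = 0.058), so 6 of 7 probes were called, against 17.4% of all probes. On every probe the 3 GMP arrays did not overlap with the 3 MEP arrays. Genes that were not called, such as the corepressor genes Rcor1 and Ehmt2, also showed no overlap. The share of all probes without overlap is not given here. The differences had the same sign within period 1, with 2 arrays a side, and within period 2, with 1 a side. Gfi1b was -4.88 in both, Gata1 -4.22 and -3.65, Zfpm1 -3.64 and -3.72, Gfi1 3.23 and 5.38, and the brighter Gata2 probe 0.97 and 0.92. Gata3, at background in GMP, was lower there in both. With the scanning period in the fit all 7 probes were called.

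The step from CMP into each branch separates these genes further. From CMP to MEP, Gfi1b rose by 2.03 ± 0.22, Gata1 by 1.96 ± 0.40 and Zfpm1 by 1.03 ± 0.23 on the log2 scale (limma, adjusted p = 2.29e-05, 0.00333 and 0.00734). Gata2 fell by 1.67 on the log2 scale on the brighter probe and by 1.41 on the dimmer one (SE 0.15 and 0.18; adjusted p = 5.62e-06 and 8.87e-05). Gata3 (0.31 ± 0.37, adjusted p = 0.685) and Gfi1 (-1.20 ± 0.42, adjusted p = 0.07) did not pass the test, so 5 of 7 probes were called, against 16.7% of all probes. Within periods 1 and 2 the values were 1.93 and 2.23 for Gfi1b, 1.79 and 2.29 for Gata1, 1.03 and 1.04 for Zfpm1, -1.66 and -1.69 for the brighter Gata2 probe and -0.37 and -2.85 for Gfi1. Mature erythroid markers also moved along this step, and their part in it was not tested.

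From CMP to GMP, Gfi1b fell by 2.85, Zfpm1 by 2.63 and Gata1 by 2.07 on the log2 scale (SE 0.22, 0.23 and 0.40; limma, adjusted p = 1.26e-05, 3.54e-05 and 0.00758). Gata3 was at least 5.92-fold lower (adjusted p = 9.3e-05), a bound that holds for this background correction, since normexp, which compresses low signals, gave a difference of -0.94 (adjusted p = 0.00849). Gata2 also fell, by 0.72 on the brighter probe and by 0.87 on the dimmer one (SE 0.15 and 0.18; adjusted p = 0.0159 and 0.0123). Gfi1 rose by 2.75 ± 0.42 (adjusted p = 0.00162). All 7 probes were called, against 4.77% of all probes. Within periods 1 and 2, Gfi1b gave -2.96 and -2.65, Zfpm1 -2.61 and -2.68, Gata1 -2.43 and -1.36, the brighter Gata2 probe -0.69 and -0.77 and Gfi1 2.86 and 2.53. The Gata2 call depended on several choices. It was lost on both probes when arrays were scaled to the 75th percentile (-0.58 and -0.76; adjusted p = 0.225 and 0.0772). It was lost on the brighter probe without any 1 of the GMP or CMP arrays that are unnumbered or numbered 2 (adjusted p = 0.052 to 0.0774), and on the dimmer probe without the unnumbered GMP array or CMP replicate 2 (adjusted p = 0.0532 and 0.0612). Mast cell and basophil markers had a mean log2 intensity of 7.63 to 8.64 on the CMP arrays and 11.78 to 12.37 on the GMP arrays. For 3 eosinophil genes it was 8.49 to 10.17 in CMP and 12.13 to 13.63 in GMP. The part of these markers in the step from CMP to GMP was not tested. Since the steps from CMP to MEP and to GMP use the same CMP arrays, their values are given side by side and not as independent results. Gata1, Zfpm1 and Gfi1b went up on one branch and down on the other, Gata2 went down on both, and Gfi1 went up in GMP.

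**Figure D2:**
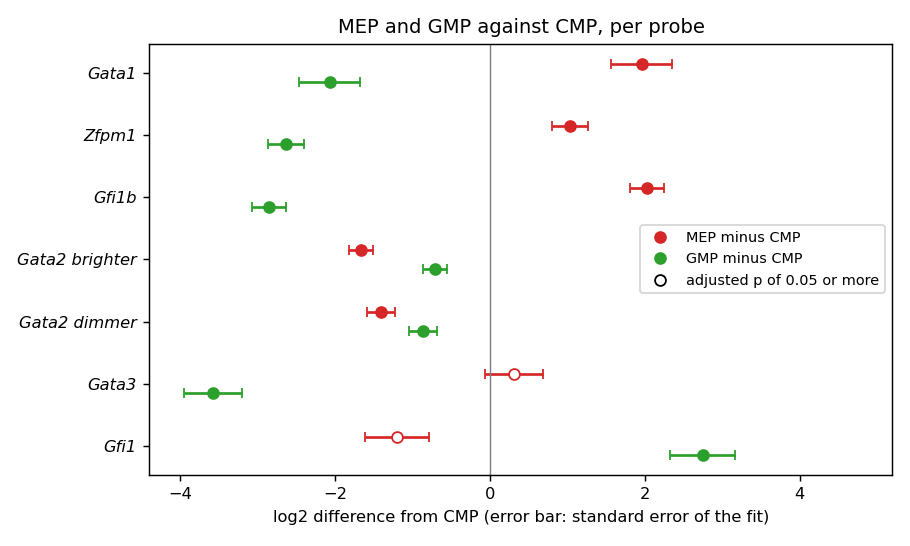
Difference in log2 intensity from CMP (horizontal axis) for MEP and for GMP, per probe, with the standard error of the fit as bars. Filled points had an adjusted p under 0.05. Gfi1b, Gata1 and Zfpm1 lie right of zero for MEP and left of it for GMP, and both Gata2 probes lie left of it for both populations. The GMP point of Gata3 is a fitted value at background.

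A scaling factor common to all probes of an array cancels in the difference of 2 genes on it, whereas quantile normalization can move probes of different intensity by different amounts. The log2 intensity of Gata1 minus that of Gata2, whose absolute value has no meaning because the probes differ, was 1.55 ± 0.37 (SD, n = 3) in MEP and -3.80 ± 1.29 (SD, n = 14) on the other arrays, a shift of 5.35 (exact two-sided permutation test over 680 splits, p = 0.00147, the smallest this design can give, adjusted p = 0.00294 over 2 such tests). The splits exchanged single arrays freely over populations and scanning periods. The p thus treats the 14 other arrays, which come from several populations, as a single group. It does not measure the spread between pools of a population. Every MEP array was above every other array. CMP was next, at -2.08 ± 0.65 (SD, n = 3), and MPP was lowest at -5.45 ± 0.81 (SD, n = 3). The shift was 4.32 among the 6 arrays of period 1 and 4.84 among the 5 of period 2. The balance of Gfi1b and Gfi1 shifted by 5.28 between MEP (6.40 ± 1.36; SD, n = 3) and the others (1.12 ± 2.18; SD, n = 14; exact two-sided permutation test, p = 0.00294, adjusted p = 0.00294). Here too each MEP array was above all others, and GMP stood at the other end at -2.43 ± 0.11 (SD, n = 3). The shift was 5.2 within period 1 and 7.30 within period 2.

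**Figure D3:**
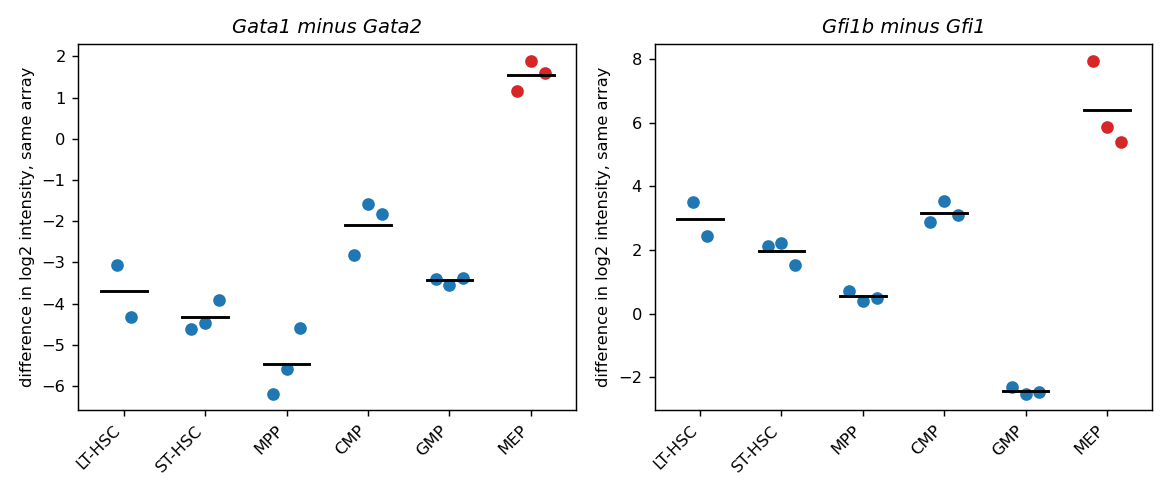
Log2 intensity of Gata1 minus Gata2 (left) and of Gfi1b minus Gfi1 (right) on the same array, by population, with population means as lines and MEP in red. Zero has no meaning on these axes because the probes differ. The 3 MEP arrays lie at 1.16 to 1.90 on the left and at 5.39 to 7.95 on the right, above all 14 other arrays.

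HSC subsets as a whole were set against the myeloid populations as the mean of LT-HSC, ST-HSC and MPP against the mean of CMP, GMP and MEP. Gata3 was higher in the HSC subsets, with a fitted difference of 3.40 ± 0.22 on the log2 scale that counts GMP at its background reading (6 of 9 myeloid arrays were well above background), and Gata1 was lower (HSC subsets minus myeloid, -2.69 ± 0.24; limma, adjusted p = 1.78e-07 and 2.48e-06). Gfi1 (0.71 ± 0.25, adjusted p = 0.0359) and Gata2 (0.47 ± 0.09 on the brighter and 0.29 ± 0.11 on the dimmer probe, adjusted p = 0.00113 and 0.0439) were higher. Zfpm1 (0.26 ± 0.14, adjusted p = 0.161) and Gfi1b (0.16 ± 0.13, adjusted p = 0.382) did not pass the test. The 5 of 7 probes called compare with 41.3% of all probes. For 6 of the 7 probes the arrays of both sides overlapped, the exception being Gata3. Most HSC subset arrays were scanned in another period than most myeloid arrays. With the period in the fit, Gata3 (2.75 ± 0.40, adjusted p = 0.00169) and Gata1 (-1.88 ± 0.41, adjusted p = 0.0122) were still called. The brighter Gata2 probe (0.17, adjusted p = 0.451), the dimmer one (0.11, adjusted p = 0.748) and Gfi1 (1.11, adjusted p = 0.186) were not called in that fit. Without the period, the size for Gata3 depended on the background correction and was 1.76 under normexp and 2.34 in the authors' table, both called. Within period 2, where 2 HSC subset arrays faced 3 myeloid ones, Gata3 gave 2.39, Gata1 -2.49, Gfi1 1.23, the Gata2 probes 0.07 and -0.06, Zfpm1 -0.16 and Gfi1b -0.60. Without both LT-HSC arrays Gata3 gave 2.99, Gata1 -3.23, Gfi1 0.86 and Gata2 0.33 on the brighter probe, all still called, and 0.08 on the dimmer one (adjusted p = 0.594).

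**Figure D4:**
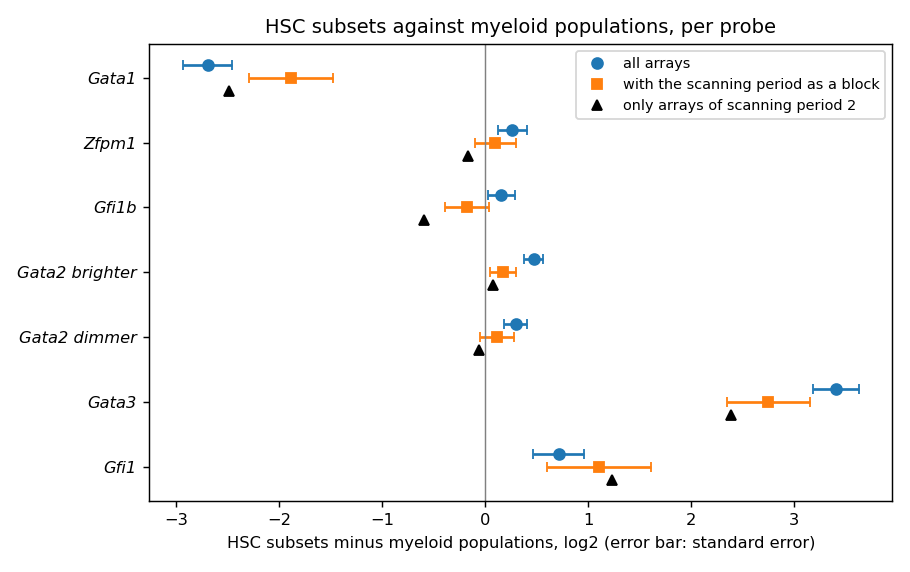
HSC subsets minus myeloid populations in log2 intensity (horizontal axis) for each probe, from all 17 arrays (circles), with the scanning period as a block (squares) and from the 5 arrays of period 2 alone (triangles). Bars are standard errors of the fit. Gata1 lies left of zero and Gata3 and Gfi1 right of it in all 3, while Zfpm1, Gfi1b and the dimmer Gata2 probe lie on both sides.

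The genes whose profile over the 17 arrays was most like each member's were looked up among 19548 genes well above background on at least 3 arrays. The measure was Pearson's r across arrays, which share population, slide and scanning period, and it is given as a description. Gata1 was most like Pdlim1 (r = 0.98), Icam4 (0.98), an erythroid adhesion molecule, and Gna14 (0.97). Zfpm1 was most like Vamp5 (0.98), Shank3 (0.97) and Gfi1b (0.96), and Gfi1b most like Hemgn (0.98), an erythroid nuclear protein, Nqo1 (0.97) and Shank3 (0.97). Zfpm1 ranked at place 8 for Gfi1b. Gata2 was most like Rbpms2 (0.96), Sdpr (0.96; Cavin2 in RefSeq) and Slc18a2 (0.95), a transporter of monoamines into vesicles. Gata3 was most like Myo6 (0.97), Ak1 (0.97) and 2310057J16Rik (0.96; Camsap3 in RefSeq), and Gfi1 most like Acpl2 (0.96; Pxylp1 in RefSeq), Fgl2 (0.95) and Hfe (0.95). Among the members, Gfi1 ran against Gfi1b (r = -0.87) and Zfpm1 (-0.80), and Gata1 against Gata2 gave -0.06.

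The other genes of these pathways were read from 7 lists, 75 genes in all, at 1 probe a gene. Some genes stand in 2 lists (Klf1, Cebpa and Sfpi1 among those named). Across all 28090 genes, 10.3% were called higher and 8.26% lower in GMP than in MEP, with a median difference of -0.07. Of 15 GATA-1 target genes on the array, 10 were lower and 4 higher in GMP, with a median of -2.76. Among those with the largest difference were Rhd, a subunit of the Rh blood group complex (-8.16 ± 0.87), Epor, the erythropoietin receptor (-6.38 ± 0.31), and Klf1, the erythroid Krueppel-like factor (-6.25 ± 0.54; limma, adjusted p = 1.45e-05, 2.85e-08 and 2.34e-06). Those higher in GMP, named after their values were seen, included the platelet genes Pf4 (3.06, adjusted p = 0.000165) and Itga2b (3.04, adjusted p = 0.000963) and the factor Nfe2 (1.01, adjusted p = 0.0109). Other platelet genes of the list did not follow, as Gp1ba was lower in GMP (-1.20, adjusted p = 0.034) and Gp9 gave -0.65 and was not called. The list thus moved in both directions, Rhd, Epor and Klf1 down in GMP and Pf4, Itga2b and Nfe2 up.

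Of the 12 partner transcription factors, 6 were higher and 4 lower in GMP, with a median of 0.50. Cebpa, the granulocytic factor (4.76 ± 0.45), Sfpi1, which encodes PU.1 (2.99 ± 0.55), and Fli1 (2.90 ± 0.30) were higher, and Klf1 was lower (limma, adjusted p = 5.02e-06, 0.00135, 9.82e-06 and 2.34e-06). All 6 granulocytic genes found were higher in GMP, with a median of 4.65. The largest were the granule proteases Ctsg (5.13 ± 0.69), Prtn3 (4.82 ± 0.69) and Ela2 (4.55 ± 0.90) and the factor Cebpa (limma, adjusted p = 0.000114, 0.000196 and 0.00239 for the proteases).

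Of the 14 genes known to be repressed by Gfi1 or Gfi1b, 9 were higher and 1 lower in GMP than in MEP, with a median of 1.64. Csf1r, the macrophage growth factor receptor (5.2 ± 0.49), Irf8 (5.15 ± 0.43), Csf1 (at least 15.8-fold) and Sfpi1 (2 of 3 MEP arrays well above background) were the largest (limma, adjusted p = 4.98e-06, 1.93e-06, 1.07e-07 and 0.00135). GMP is also the population in which Gfi1 was highest and Gfi1b lowest. The gene called lower, Tgfbr3, was at background in both populations. Of the 15 corepressor genes of the LSD1-CoREST and NuRD complexes, 13 were not called, and the median was -0.11. Phf21a was higher (1.44 ± 0.19, adjusted p = 8.58e-05) and Mta1 lower in GMP (-0.53 ± 0.16, adjusted p = 0.0365). The number called lower ranged from 0 to 3 over the alternatives. It was 0 without MPP replicate 3, CMP replicate 2, MEP replicate 1 or 2, GMP replicate 2 or the unnumbered GMP array, and 3 under normexp or with the scanning period in the fit. The number called higher was 1 or 2. The gene of LSD1 itself, Aof2 on the array, gave -0.31 (adjusted p = 0.547).

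Of 11 lymphoid genes around Gata3, 5 were lower and 1 higher in GMP, with a median of -1.12. Bcl11b (at least 5.92-fold) and Il7r (at least 5.39-fold) were not well above background in GMP. Dntt, the enzyme that adds bases at V(D)J joints, was also lower (-3.1 ± 0.52), and Notch1 was higher (3.03 ± 0.30, with 2 of 3 MEP arrays well above background; limma, adjusted p = 2.11e-05, 8.45e-05, 0.000699 and 7.33e-06). Of the 5 other GATA family and FOG genes, Trps1 was higher in GMP (4.54 ± 0.56, adjusted p = 5.09e-05, with 1 of 3 MEP arrays well above background), and the others were not called. Gata5, Gata6 and Zfpm2 were at background on all GMP and MEP arrays. The middle gene of this list was at background, so no median is given.

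**Figure D5:**
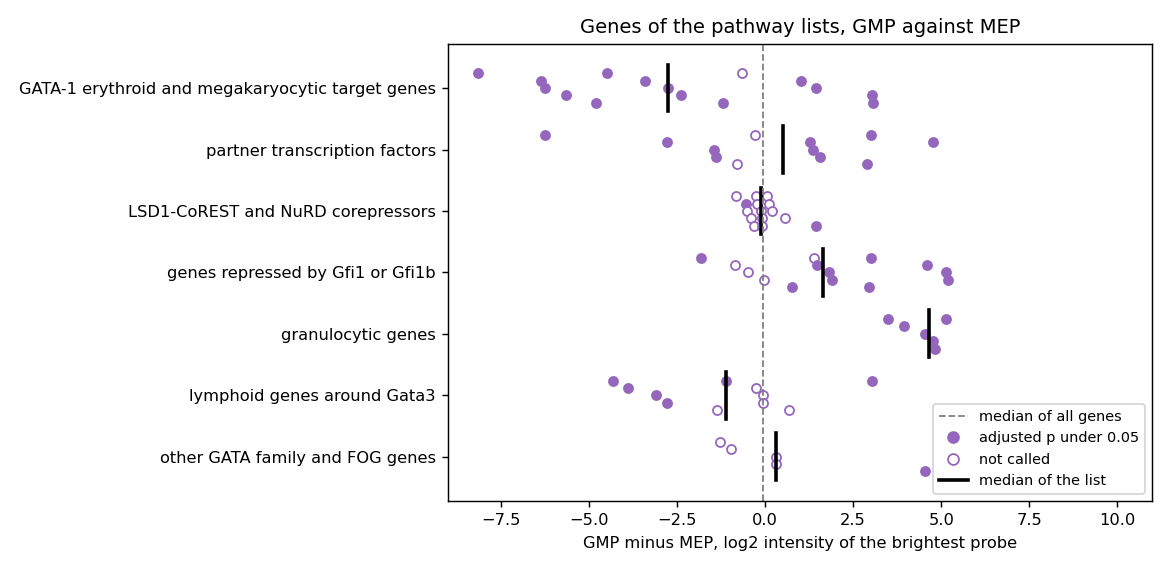
GMP minus MEP in log2 intensity (horizontal axis) for each gene of the 7 lists, at its brightest probe. Filled points had an adjusted p under 0.05, thick lines are list medians and the dashed line is the median of all genes (-0.07). The granulocytic list lies wholly to the right, the GATA-1 targets on both sides with a median of -2.76, and 13 of 15 corepressor genes are open points.

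Between HSC subsets and myeloid populations, 21.7% of all genes were called higher and 19% lower, with a median of 0.04. Of the 14 genes repressed by Gfi1 or Gfi1b, 9 were higher in the HSC subsets and 1 lower, with a median of 1.62. Meis1, a homeobox factor of stem cells (2.77 ± 0.14), Egr1 (2.33 ± 0.21), Id1 (2.30 ± 0.22) and Egr2 (1.90 ± 0.22) had the largest fitted differences (limma, adjusted p = 1.98e-08, 2.71e-06, 4.56e-06 and 1.9e-05), with Meis1 well above background on 6 of 9 and Id1 on 8 of 9 myeloid arrays. With the scanning period in the fit 8 were higher and none lower. Of the 11 lymphoid genes, 6 were higher and 1 lower, and with the period in the fit 4 were higher. Dntt (3.1 ± 0.31), Thy1 (1.75 ± 0.09), Il7r (1.68 ± 0.31) and Rag1 (1.51 ± 0.50) had the largest fitted differences (limma, adjusted p = 7.02e-06, 1.97e-08, 0.000631 and 0.0267). Rag1 was well above background on 4 of 8 HSC subset and 2 of 9 myeloid arrays and Il7r on 8 of 8 and 6 of 9, and Ptcra, the middle gene of the list, was at background on all myeloid arrays, so no median is given. T cell markers had a mean log2 intensity of 5.38 to 6.77 on the HSC subset arrays and 3.69 to 5.21 on the myeloid ones, and their part in these values and in Gata3 was not tested.

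Of the 15 GATA-1 targets, 3 were higher in the HSC subsets and 7 lower, with a median of -0.21. Itga2b (-1.97 ± 0.32) and Klf1 (-1.95 ± 0.32) were among those lower (limma, adjusted p = 0.00026 and 0.000322). Of the 12 partner factors 5 were higher and 4 lower, and among them Ets1 (1.94 ± 0.15) and Fli1 (1.64 ± 0.18) were higher and Ldb1 (-1.06 ± 0.19) was lower (limma, adjusted p = 7.63e-07, 1.19e-05 and 0.000575). Of the corepressors 2 were higher and 3 lower, led by the NuRD subunit Mbd3 (-1.70 ± 0.21; limma, adjusted p = 3.52e-05) and followed by Gatad2a (-0.70 ± 0.12, adjusted p = 0.000393), Phf21a (0.59 ± 0.11, adjusted p = 0.000988) and Aof2 (0.51 ± 0.15, adjusted p = 0.0175). When all probes of a gene were averaged, 7 corepressors instead of 3 were called lower. Of the 6 granulocytic genes Prtn3 (-1.64 ± 0.42, adjusted p = 0.00656) and Cebpa (-1.02 ± 0.27, adjusted p = 0.00846) were lower, and of the other GATA family genes Trps1 (1.69 ± 0.34, adjusted p = 0.00121) and Gata6 (1.44 ± 0.42, adjusted p = 0.015) were higher. Gata6 was well above background on 7 of 8 HSC subset and 1 of 9 myeloid arrays, and Trps1 on 8 of 8 and 7 of 9. With the scanning period in the fit, the calls over the 7 lists together, each gene counted once, went from 43 to 19. The GATA-1 targets then had 1 higher and 3 lower, the partner factors 2 and none, the corepressors 1 and none, and the granulocytic and other GATA family lists none. In the same fit the median of the granulocytic list went from -0.88 to 0.39.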

How the data were processed

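Total RNA of sorted bone marrow populations was labelled with Cy3 and hybridised to single-color Agilent 4x44k arrays. The deposited scanner files hold spot intensity from which Agilent Feature Extraction (9.5.3.1 or 10.2.1.3) had removed background and spatial trends, with arrays not yet scaled to each other, and marks of 0 or 1 for spots above background, saturated or outlying. A second deposited set, the log2 values that the authors quantile normalized with limma, ranked spots in the same order as the raw median intensity of each array (Spearman correlation 1) and served as an alternative.

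Quantile normalization was run on log2 intensity across the spots of all 17 arrays (limma 3.58.1, R 4.3.3). Control spots (1639) and outlying spots were dropped next, and the mean over its spots was used for each of 41174 probes. One mean per population was fitted (lmFit, eBayes), and p-values were adjusted over all probes (Benjamini-Hochberg, threshold 0.05). A probe counted as well above background on an array when at least 50% of its spots were so marked. Replicates are pools of mice, and the limma p-values measure the spread between these pools. The number of arrays limits the precision.

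Members and lists were chosen with earlier results of these data known. Text names every member probe, for each member the 3 genes with the most similar profile, and up to 4 called genes a list with the largest difference, less a few that are not reported here. List genes were matched to array names by symbol, RefSeq synonym or accession, and Ahsp, Cebpe and Hbb-b1 were not matched. Tcf3 was read from the probe named Tcfe2a, because the accession of the probe named Tcf3 belongs to Tcf7l1 in RefSeq. Alternatives were normalization to the 75th percentile, normexp with an offset of 50, the authors' table, the scanning period, slide or replicate number as a block, a filter that asks for 2 arrays of a population well above background, the mean of all probes of a gene, LT-HSC left out and each array left out. The fit was tested on simulated data.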

Additional observations from a re-analysis of the deposited data

How the results depend on the processing

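The F-test, GMP against MEP, MEP against CMP, GMP against CMP and the neighbouring populations kept their number of calls within 1.5 times under all alternatives, and both shifts in gene balance kept their direction and passed the exact test wherever one was run. Of the 7 member probes, 5 were called between HSC subsets and myeloid populations, against 3 after scaling to the 75th percentile, 2 with the scanning period as a block and 3 with the replicate block. The labels do not say whether a replicate number marks shared animals, and deviations of same-numbered samples had a correlation of 0.056 to 0.18 within a sort and of -0.072 to 0.175 between both sorts, so the block is given here only. It also took the call from the brighter Gata2 probe for GMP against CMP (-0.69, adjusted p = 0.054). With 1 array left out, the count between HSC subsets and myeloid populations ranged from 3 to 5. It was 3 without ST-HSC replicate 3, MPP replicate 3, the pooled LT-HSC array, GMP replicate 1 or 2, or CMP replicate 1. Gfi1 lost its call in that comparison without any of 10 arrays (adjusted p = 0.0508 to 0.0857) and the dimmer Gata2 probe without any of 12 (adjusted p = 0.0582 to 0.132). The pathway lists went from 43 called genes to 19 with the scanning period as a block. Differences that did not pass the test also turned their sign. Between HSC subsets and myeloid populations, Gfi1b gave -0.18 with the scanning period, -0.15 with the replicate block and -0.27 without both LT-HSC arrays, and Zfpm1 gave -0.0525 without both LT-HSC arrays. Gata3 for MEP against CMP ranged from -0.0309 without the unnumbered MEP array to 0.521 without MEP replicate 1. The causes were not tested. Gata3 in GMP is at background, and its difference from MEP was -1.11 under normexp and -1.82 in the authors' table (-0.94 and -1.51 from CMP). Scaling to the 75th percentile moved the median of all probes to 0.31 for HSC subsets minus myeloid populations, where the share of calls that were higher went from 44% to 64.1%, to -0.43 for GMP minus MEP and to 0.49 for MEP minus CMP.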
